A study of Mus musculus with 61 samples.

Results

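The 9 genes Insr, Igf1r, Irs1, Irs2, Pik3r1, Akt1, Akt2, Grb10 and Grb14 form the core of the insulin receptor signalling pathway, and their RNA levels were compared in skeletal muscle of 8 inbred mouse strains. They were taken by gene symbol, and all 9 were among the 19462 genes of the deposited table and among the 16682 that passed the filter on low counts. The data were 61 poly(A)-selected RNA-seq libraries, 8 each of AJ, B6, 129, NZO and WSB and 7 each of NOD, Cast and PWK. Every group carried the same label of a diet with 45 percent fat, described as a high-fat, high-sugar (HFHS) diet, so the strains share the feeding and there is no control strain. Sex, age, muscle and batch are not in the labels, nor is it stated whether each library is a different mouse. The p-values are thus over libraries, whose spread can include technical variation.

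Insulin binds the receptor tyrosine kinase Insr, and the related Igf1r binds insulin-like growth factors. The active receptors phosphorylate the docking proteins Irs1 and Irs2, which recruit phosphoinositide 3-kinase through its regulatory subunit p85, encoded by Pik3r1. The lipid made by this kinase brings Akt1 and Akt2 to the membrane, where they are activated. Akt2 is the isoform best known for insulin-driven glucose uptake, and muscle takes up much of the glucose cleared after a meal. Grb10 and Grb14 are adaptors that bind the active receptor and hold it back, and Grb10 is an imprinted gene. Akt also keeps FoxO transcription factors out of the nucleus. When insulin is low, as in fasting, FoxO factors are known to raise genes of muscle breakdown and autophagy, and also to raise Insr and Irs2.

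The libraries held 17.1 to 65.2 M estimated counts (median 33.7 M, with M for 1000000 counts), and 10 myofibre markers (Ckm, Acta1, Ttn and others) summed to between 114000 and 213000 CPM (counts for each 1000000 of the library) in every library. Markers of hepatocytes (9.26 to 7260 CPM in sum), lymphocytes (0.0392 to 111 CPM) and keratinocytes (9.5 to 386 CPM) varied widely between libraries. In B6 library 5, 46.3% of the counts fell on the ribosomal RNA gene Rn18s-rs5, against at most 9.76% elsewhere. Cast libraries 1, 5 and 6 stood apart from the other 58 libraries. In these 3 libraries, 7.36% of all genes tested were above, and 5.85% below, every other library. Insr, Igf1r and Pik3r1 were among those above. Strain differences and orders in which Cast takes part are therefore given with and without these 3 libraries, a choice made after their values had been seen.

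Across the 8 strains, 8 of the 9 genes (88.9%) differed in level, against 85.5% of all genes tested. Grb10 was the exception, with an adjusted p of 0.235 (edgeR's quasi-likelihood F test, Benjamini-Hochberg adjustment over all genes, as for every adjusted p below). The span, that is the log2 difference between the highest and the lowest strain, had a median of 1.14 over the 9 genes, against 0.91 over all genes tested and 0.62 over the 9260 genes with a mean of at least 5 CPM. With all libraries, the widest spans were those of Grb14 (2.06) and Pik3r1 (1.92), and the narrowest were those of Grb10 (0.52) and Akt2 (0.68). Without Cast libraries 1, 5 and 6, the genes that differed were 7 of 9, against 82.6% of all genes, because Irs2 no longer passed (adjusted p = 0.244). The median span of the 9 genes was then 0.68, against 0.84 over all genes tested and 0.53 over the 9258 genes with at least 5 CPM. The spans of the 9 genes also changed order: Grb14 (1.90) and Irs1 (1.33) were then the widest, and Grb10 (0.35) and Igf1r (0.38) the narrowest, with Pik3r1 at 1.05 and Akt2 at 0.68.

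**Figure D1:**
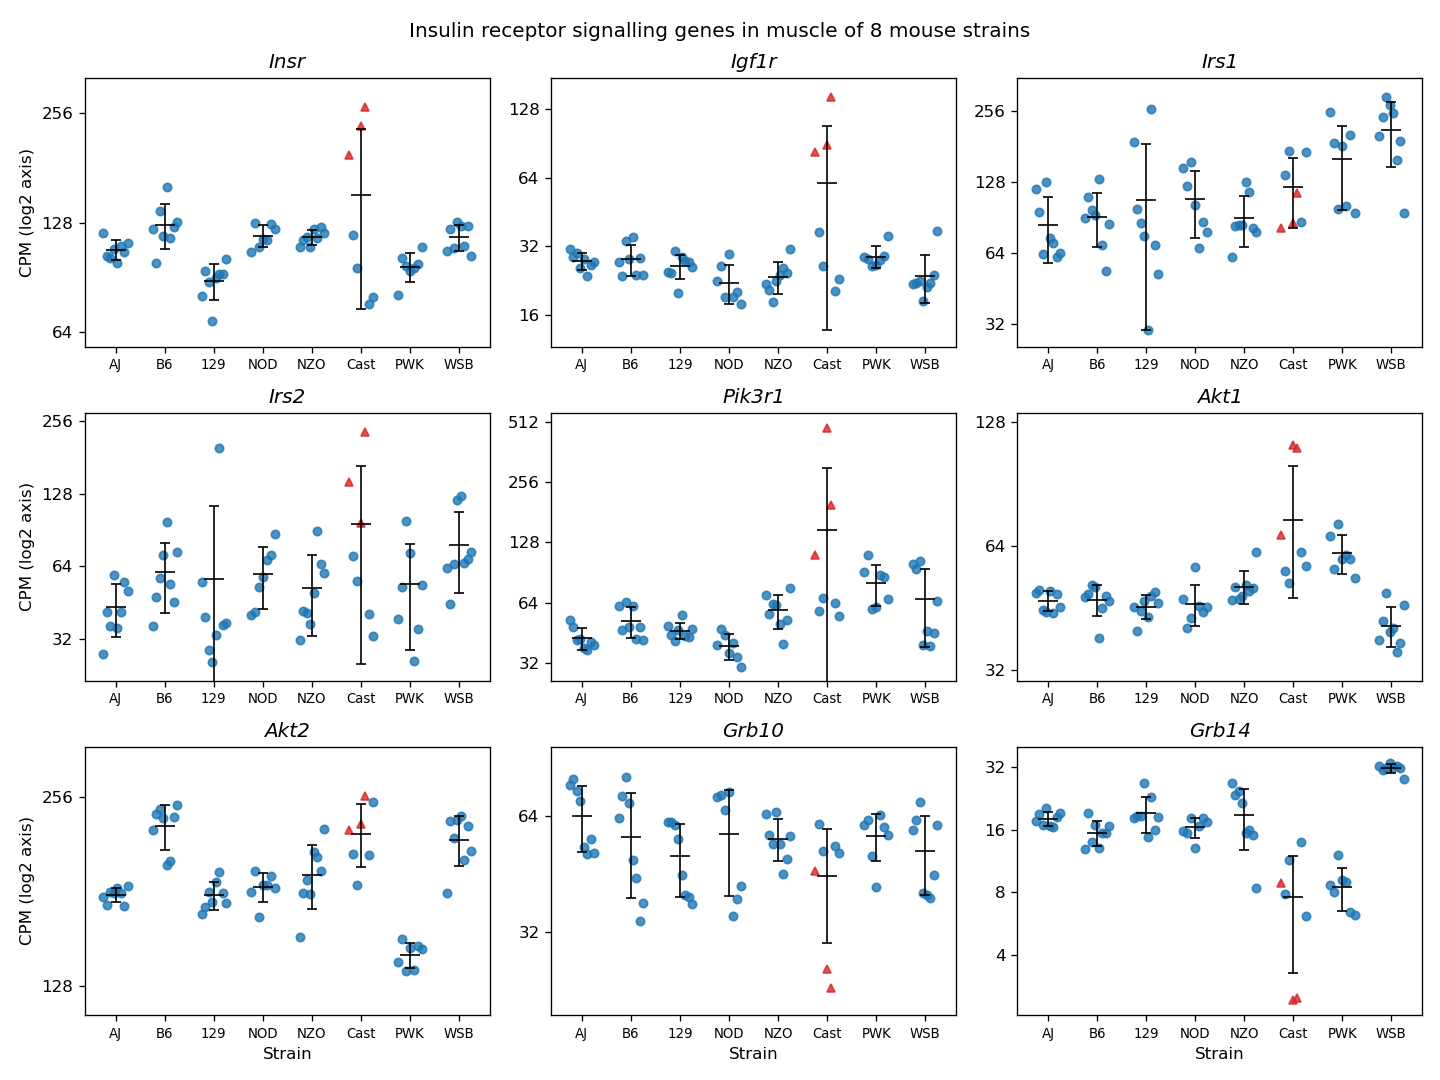
Level of each of the 9 genes in CPM (log2 axis) in every library, by strain. Points are libraries, horizontal dashes with bars are means ± SD (bars that would reach below the axis are cut off), and red triangles are Cast libraries 1, 5 and 6. All 8 WSB libraries lie above every other library for Grb14, and all 7 PWK libraries lie below every other library for Akt2. The share of all genes in which a strain lies apart in this way was not counted.

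Per kilobase of exon, Akt2 was the most abundant of the 9 transcripts, with a mean over strains of 27.2 CPM per kilobase. Irs1 (13.3), Akt1 (12.6), Irs2 (9.89) and Insr (8.39) followed. Pik3r1 (6.60) and Grb10 (6.01) were lower on the same per-length scale, and Grb14 (2.37) and Igf1r (1.79) were the least abundant. The order of these averages was not tested. They include Cast libraries 1, 5 and 6 and were not computed without them. For Pik3r1, Cast had 14.6 CPM per kilobase (SD 15.2, n = 7), and the next strain, PWK, had 7.97. The place of Pik3r1 above Grb10 may therefore rest on these libraries.

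Insr, which encodes the insulin receptor, lies on chromosome 8 (GRCm38, 3122061 to 3279617, minus strand). Its lowest, median and highest library levels were 68.6, 91.1 and 101 CPM in 129, and 80.6, 96.9 and 109 CPM in PWK. In B6 they were 99.1, 123 and 160 CPM. Cast had the highest mean (153 CPM ± 78.7 SD, n = 7), but only some of its libraries lay above the other strains. Cast libraries 1, 5 and 6 had 197, 236 and 266 CPM, above every other library, whereas Cast libraries 2, 3, 7 and 8 had 118, 95.9, 76.5 and 79.9 CPM.

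Against the mean of the other 7 strains, Insr was lower in 129, with a log2 value of -0.42 (SE 0.11, adjusted p = 0.00274), and higher in Cast, with 0.48 (SE 0.11, adjusted p = 9.87e-05). The Cast result turned over without the 3 libraries, to a log2 difference of -0.24 (SE 0.08, adjusted p = 0.00992). Over its 4 remaining libraries Cast was below the mean of the other strains, though not below each of them. The 3 libraries left out were the highest in Insr and were chosen with these values seen. The adjusted p over the other 4 therefore cannot show that Insr is lower in Cast. The difference among strains itself remained, with an adjusted p of 4.04e-08 without the 3 libraries and 1.63e-08 without the strain Cast (82.6% and 79.8% of all genes passed in these fits). Of the 28 pairs of strains, 11 differed in Insr, against 33.8% of all gene and pair tests. The libraries did not overlap in 4 pairs (background 12.2%), and 3 of these set 129 below NOD, NZO and WSB. No 2 neighbours in the order of strain means differed, with or without the 3 libraries. Without them B6 had the highest mean, and Cast (92.7 CPM) stood between PWK and 129.

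Igf1r, the receptor for insulin-like growth factors, lies on chromosome 7 (67952827 to 68233668, plus strand). Outside Cast it varied little: the strain medians ran from 20.1 CPM in NOD to 28.2 CPM in PWK, and every library of the 7 strains lay between 18.0 and 37.4 CPM. Cast libraries 1, 5 and 6 had 83.2, 89.2 and 145 CPM, and the other 4 Cast libraries had 20.4 to 36.8 CPM. Igf1r was higher in Cast than in the other strains by a log2 difference of 1.24 (SE 0.15, adjusted p = 4.02e-10). Without the 3 libraries the difference was 0.06 (SE 0.12, adjusted p = 0.731). Of the 28 strain pairs, 7 differed in Igf1r, all with Cast. Without the 3 libraries 4 pairs differed, none of them with Cast (33.8% and 33.9% of all gene and pair tests). The strain difference as a whole was smaller without them but still passed, with a span of 0.38 (adjusted p = 0.0261). NOD was then lower than the other strains, by a log2 difference of -0.25 (adjusted p = 0.0449).

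The ratio of Insr to Igf1r, each in CPM per kilobase of exon, was 6.68 ± 1.25 (SD, n = 7) in NOD, 6.27 ± 1.44 (n = 8) in WSB and 4.14 ± 0.419 (n = 8) in 129. In Cast it was 3.64 ± 0.874 (n = 7), and 4.28 ± 0.288 (n = 4) without libraries 1, 5 and 6. The ratios in 129 and NOD overlapped only between 4.74 and 4.75, the lowest NOD library and the highest 129 library.

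Irs1 lies on chromosome 1 (82233101 to 82291416, minus strand) and encodes the docking protein best known in muscle insulin signalling. It was highest in WSB, where the lowest, median and highest libraries had 94.6, 220 and 292 CPM. PWK libraries had 94.6, 181 and 253 CPM on the same measures, and AJ libraries had 61.2, 72.2 and 128 CPM. The 129 libraries were spread from 30.2 to 259 CPM, the widest relative range of this gene in any strain. WSB exceeded the mean of the other strains (log2 difference 1.00, SE 0.19, adjusted p = 2.14e-05), as did PWK (0.52, SE 0.21, adjusted p = 0.0367). The PWK result stood near the threshold, and without Cast libraries 1, 5 and 6 it was 0.49 (adjusted p = 0.0514), while Irs1 in AJ then passed at a log2 difference of -0.56 (adjusted p = 0.0390). The order ran WSB, PWK, Cast, NOD, 129, B6, NZO and AJ with and without the 3 libraries, and no 2 neighbours in it differed in either case. Of the 28 pairs, 9 differed (33.8% of all gene and pair tests) and none was free of overlap (12.2%).

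The counts of Irs1 carry a reservation. They were fractional in 61 of 61 libraries, and the gene Gm9747 lies on the opposite strand wholly inside an Irs1 exon (2822 bases, chromosome 1, 82233112 to 82235933), so reads of the 2 genes cannot be told apart if strand was not used. Gm9747 had 14.4 to 27.2 CPM in the strain means and was also highest in WSB. When its counts were added to those of Irs1, PWK no longer passed (log2 difference 0.44, adjusted p = 0.0662).

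Irs2, the second docking protein, lies on chromosome 8 (10984681 to 11008458, minus strand). The lowest, median and highest libraries had 27.8, 41.4 and 59.1 CPM in AJ, and 44.7, 67.4 and 126 CPM in WSB. In 129 they had 25.7, 36.9 and 198 CPM, with library 7 far above the rest. Cast libraries 1, 5 and 6 had 144, 97.0 and 232 CPM, against 32.8 to 70.8 CPM in the other 4. The difference among strains passed the threshold narrowly (adjusted p = 0.0434), and it did not pass without Cast library 5 alone (adjusted p = 0.0645), with library number as a block (0.0827) or with limma on the deposited variance-stabilised values (0.0695). Irs2 was higher in Cast (log2 difference 0.75, SE 0.25, adjusted p = 0.00717), and the sign turned to -0.19 (SE 0.31, adjusted p = 0.647) without the 3 libraries. Without 129 library 7, Irs2 in 129 was lower than in the other strains, by a log2 difference of -0.75 (adjusted p = 0.0157). Of the 28 strain pairs 3 differed, and 1 without the 3 Cast libraries (33.8% and 33.9% of all gene and pair tests).

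Since Irs2 is a textbook FoxO target, and since Insr, Igf1r and Pik3r1 were high in the 3 Cast libraries in which FoxO-raised genes were also high, the 250 bases before the RefSeq starts of the 9 genes were searched on both strands for the FoxO motif GTAAACA (reverse TGTTTAC) and for the insulin response sequence CAAAACA (reverse TGTTTTG). Of the 9 genes, 8 had windows in the RefSeq table (GRCm38.p6), 14 windows in all. Insr had no window and so could not be searched. The 3 genes with a match are printed 5′ to 3′ on the strand of the gene, with the matches in capitals. They are Irs1 (chr1:82291440-82291689, minus strand), Irs2 (chr8:11008930-11009179, minus strand) and the more distal of 2 Akt1 starts (chr12:112674885-112675134, minus strand).
Irs1: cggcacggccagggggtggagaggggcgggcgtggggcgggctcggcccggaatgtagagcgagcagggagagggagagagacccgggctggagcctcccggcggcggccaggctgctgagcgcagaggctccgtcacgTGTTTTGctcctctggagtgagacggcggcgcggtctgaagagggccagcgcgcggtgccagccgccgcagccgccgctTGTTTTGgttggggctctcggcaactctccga
Irs2: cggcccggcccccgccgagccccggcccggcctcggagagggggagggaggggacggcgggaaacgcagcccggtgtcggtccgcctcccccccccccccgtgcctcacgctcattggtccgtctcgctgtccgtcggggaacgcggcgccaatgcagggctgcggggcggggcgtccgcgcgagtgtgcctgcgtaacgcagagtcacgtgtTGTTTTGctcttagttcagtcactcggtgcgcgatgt
Akt1: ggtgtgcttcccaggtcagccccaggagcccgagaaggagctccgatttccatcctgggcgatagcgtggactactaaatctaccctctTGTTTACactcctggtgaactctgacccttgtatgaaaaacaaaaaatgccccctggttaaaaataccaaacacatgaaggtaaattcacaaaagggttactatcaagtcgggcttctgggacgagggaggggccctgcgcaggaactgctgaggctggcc

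Irs1 held 2 matches to the insulin response sequence, which began 111 and 32 bases before its start, and Irs2 held 1, which began 37 bases before its start. This motif was found in 5.56% of the 32817 windows of the table. Akt1 held 1 match to GTAAACA, 161 bases before its start, a motif found in 3.16% of windows. The windows of Igf1r, Pik3r1, Akt2, Grb10 and Grb14 held neither string, nor did the other Akt1 window. A match of letters is a description of the window and not evidence of a binding site. The windows of Irs1 and Irs2 had a base composition of 72.4% and 72.8% G and C, against a median of 52.4% over all windows.

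Pik3r1 lies on chromosome 13 (101680563 to 101768217, minus strand) and encodes p85 and its shorter forms, the regulatory subunits that hold the kinase at the docking proteins. Its lowest, median and highest libraries had 30.7, 39.6 and 47.3 CPM in NOD, 37.0, 41.4 and 52.3 CPM in AJ and 59.3, 86.1 and 110 CPM in PWK. All 7 PWK libraries lay above all NOD, AJ and 129 libraries. With all libraries, 5 of the 28 strain pairs had no overlap in Pik3r1 (12.2% of all gene and pair tests). Cast libraries 1, 5 and 6 had 111, 474 and 197 CPM, the highest 3 of all 61 libraries, and the other 4 had 55.2 to 67.3 CPM. Pik3r1 was lower in NOD (log2 difference -0.73, SE 0.22, adjusted p = 0.0111) and in AJ (-0.58, SE 0.20, adjusted p = 0.0234). It was higher in Cast by 1.46 (SE 0.18, adjusted p = 6.40e-10). Without the 3 libraries the Cast difference was 0.20 (SE 0.16, adjusted p = 0.323). PWK then stood highest, with a log2 difference of 0.64 (adjusted p = 8.88e-06) where it had been 0.46 (adjusted p = 0.0544) with all libraries. NOD and AJ remained lower, at -0.55 and -0.40. Of the 28 pairs, 12 differed with all libraries and 13 without the 3 (33.8% and 33.9% of all gene and pair tests).

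Akt1 lies on chromosome 12 (112653821 to 112674884, minus strand) and encodes the Akt isoform tied mainly to growth. Its coefficient of variation between libraries was 5.57% to 11.3% in the 7 strains other than Cast. The lowest, median and highest libraries were 35.4, 40.1 and 49.1 CPM in WSB and 53.3, 59.6 and 72.3 CPM in PWK, with no overlap between these strains. With all libraries, 8 of the 28 strain pairs had no overlap in Akt1 (12.2% of all gene and pair tests). Cast libraries had 52.1 to 61.8 CPM outside the 3 libraries, which had 68.1, 112 and 111 CPM. Akt1 was higher in Cast (log2 difference 0.62, SE 0.08, adjusted p = 5.56e-10) and in PWK (0.31, SE 0.08, adjusted p = 0.000991), and lower in WSB (-0.35, SE 0.08, adjusted p = 0.00025). Without the 3 libraries the Cast difference was 0.24 (SE 0.07, adjusted p = 0.00298), smaller and still past the threshold. In the order of means, Cast stood first and differed from PWK (adjusted p = 0.0462), PWK differed from NZO (adjusted p = 0.0404), and none of the other 5 neighbours differed. With the 3 libraries left out the order turned, with PWK first (61.5 CPM) and Cast next (56.8 CPM), and none of the 7 neighbours differed (PWK against Cast, log2 difference 0.11, adjusted p = 0.298). Of the 28 pairs, 14 differed in Akt1 with all libraries and 16 without the 3 (33.8% and 33.9% of all gene and pair tests). Those with Cast went from 7 to 5.

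Akt2, on chromosome 7 (27591552 to 27640826, plus strand), encodes the isoform that drives glucose uptake. Strain accounted for 77.8% of its variance between libraries on the log2 scale, against a median of 45.4% over all genes tested. PWK had the lowest levels (lowest, median and highest libraries 135, 146 and 152 CPM), and all 7 PWK libraries were below all 54 libraries of the other strains. B6 had 200, 238 and 249 CPM, WSB 180, 225 and 239 CPM and Cast 185, 227 and 257 CPM. AJ libraries were tightly grouped at 172, 180 and 185 CPM. With all libraries, 11 of the 28 strain pairs had no overlap in Akt2 (12.2% of all gene and pair tests). The share of all genes in which a strain lies apart from all others was not counted.

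Akt2 was lower in PWK than in the other strains by a log2 difference of -0.48 (SE 0.05, adjusted p = 5.52e-12). It was higher in B6 by 0.30 (SE 0.04, adjusted p = 2.24e-07), in Cast by 0.26 (SE 0.05, adjusted p = 4.24e-06) and in WSB by 0.22 (SE 0.04, adjusted p = 6.23e-05). Smaller differences in AJ (-0.11, adjusted p = 0.0469) and 129 (-0.12, adjusted p = 0.0471) passed barely, and neither passed without Cast libraries 1, 5 and 6. The Cast difference was 0.18 (adjusted p = 0.0102) without them. Of the 7 neighbours in the order of means, 2 differed: WSB exceeded NZO (adjusted p = 0.0111), and 129 exceeded PWK (adjusted p = 4.05e-05). With 4 Cast libraries, Cast (213 CPM) stood between WSB and NZO, and of the neighbours 129 and PWK alone differed (adjusted p = 2.88e-05). Akt2 counts were fractional in 38 of 61 libraries, and the pseudogene Akt2-ps matches 1449 bases at 98.6% identity. Adding its counts changed none of these calls.

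The 2 Akt isoforms moved in opposite directions in PWK and in WSB. The ratio of Akt2 to Akt1, each in CPM per kilobase of exon, was 1.36 ± 0.187 (SD, n = 7) in PWK and 3.10 ± 0.389 (n = 8) in WSB, with ranges of 1.08 to 1.58 and 2.58 to 3.55 that did not overlap. B6 had 2.80 ± 0.159 (n = 8). The other strains had means of 1.87 (Cast) to 2.31 (NOD), and Cast had 2.16 ± 0.262 (n = 4) without libraries 1, 5 and 6.

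Grb14, on chromosome 2 (64912476 to 65024987, minus strand), encodes a receptor-binding inhibitor. WSB had the highest levels, with lowest, median and highest libraries of 28.3, 32.0 and 33.6 CPM, and all 8 WSB libraries lay above all 53 others. PWK (6.22, 8.67 and 12.1 CPM) and Cast (2.42, 7.82 and 14.0 CPM) had the lowest. The other 5 strains had medians between 15.5 CPM in B6 and 18.8 CPM in NZO. As for Akt2, the share of all genes in which a strain lies apart from all others was not counted. Grb14 was higher in WSB (log2 difference 1.17, SE 0.13, adjusted p = 1.96e-10), and lower in PWK (-0.99, SE 0.17, adjusted p = 3.14e-06) and in Cast (-1.18, SE 0.18, adjusted p = 5.88e-08).

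The low Cast level of Grb14 did not rest on the 3 libraries. They had 8.89, 2.42 and 2.47 CPM, and the other 4 had 6.16 to 14.0 CPM, for a log2 difference of -0.81 (SE 0.16, adjusted p = 5.46e-05) without the 3. WSB differed from 129, the next strain (log2 difference 0.72, adjusted p = 0.00284), and B6 differed from PWK (0.86, adjusted p = 0.000704), while the difference between PWK and Cast did not pass (0.17, SE 0.21, adjusted p = 0.600). Over its other 4 libraries, Cast (9.87 CPM) stood above PWK (8.52 CPM), again without passing (0.21, adjusted p = 0.420), and B6 differed from Cast (0.65, adjusted p = 0.00413). In 17 of 28 pairs the strains differed (33.8% of all gene and pair tests), and in 13 the libraries did not overlap (12.2%).

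Grb10, on chromosome 11 (11930508 to 12038683, minus strand), is the other inhibitor of the receptor. Its strain medians ran from 50.4 CPM in 129 to 66.5 CPM in NOD, and the strains overlapped in all 28 pairs (12.2% of all gene and pair tests had no overlap). It was lower in Cast by a log2 difference of -0.33 (SE 0.15, adjusted p = 0.0483). Cast libraries 5 and 6 had 25.7 and 22.9 CPM, below all other libraries, and library 1 had 46.1 CPM. Without the 3 libraries the difference was -0.04 (SE 0.17, adjusted p = 0.861), and without library 5 alone it was -0.23 (adjusted p = 0.193). The call was also lost with DESeq2's size factors (adjusted p = 0.0536). That Grb10 did not pass among the strains depended on the fit: it passed with the sum of slow-fibre markers (adjusted p = 0.000165) or of adipocyte markers (0.0108) as a covariate, and with library number as a block (0.0485). Within strains, Grb10 had a correlation of 0.64 with the slow-fibre sum over 61 libraries. The ratio of Grb10 to Grb14, each in CPM per kilobase of exon, was 1.30 ± 0.342 (SD, n = 8) in WSB, 5.57 ± 1.61 (n = 7) in PWK and 5.60 ± 2.04 (n = 7) in Cast, and in the other 5 strains its mean was 2.10 to 2.93. Without libraries 1, 5 and 6 it was 4.84 ± 1.80 (n = 4) in Cast.

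**Figure D2:**
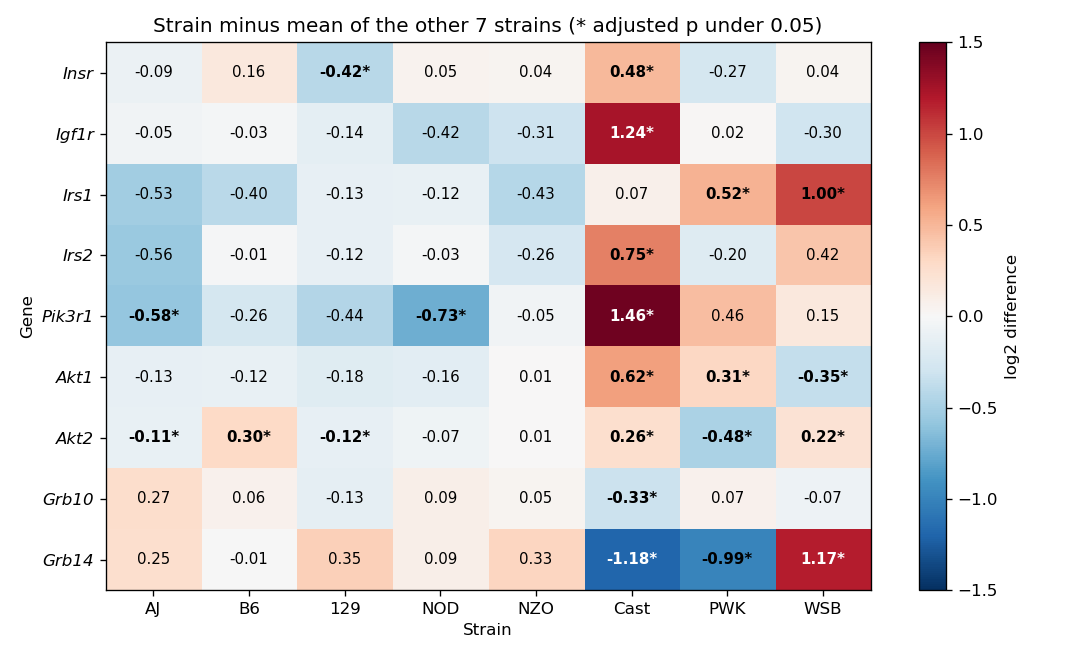
Log2 difference of each gene (rows) between a strain (columns) and the mean of the other 7 strains, with all 61 libraries, in red where the strain is higher and in blue where it is lower. Asterisks mark an adjusted p under 0.05. The Cast column holds 8 asterisks, of which 3 keep their direction and call without Cast libraries 1, 5 and 6 (Akt1, Akt2 and Grb14), and the NZO column holds none.

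Read by strain, the comparisons share libraries, since each strain also enters the mean that the others are set against. In Cast, 8 of the 9 genes passed (6 higher, 2 lower), against 61.8% of all genes, and without the 3 libraries 4 passed (Akt1 and Akt2 higher, Insr and Grb14 lower), against 43.1%. The 3 libraries were chosen after their values had been seen, so calls without them, here and below, only describe the remaining libraries. In PWK, 4 of 9 passed, against 41% of all genes: Irs1 and Akt1 were higher, and Akt2 and Grb14 were lower. In WSB, 4 of 9 passed, against 38.3%: Irs1, Akt2 and Grb14 were higher, and Akt1 was lower. Fewer passed in AJ (2, Pik3r1 and Akt2, both lower; background 31.7%), 129 (2, Insr and Akt2, both lower; 25.6%), B6 (1, Akt2, higher; 26.2%) and NOD (1, Pik3r1, lower; 21.6%).

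In NZO, a strain known for obesity and insulin resistance, 0 of the 9 genes passed with edgeR, against 27.3% of all genes. At an unadjusted p under 0.05, 2 did: Irs1 (log2 difference -0.43, adjusted p = 0.135) and Grb14 (0.33, adjusted p = 0.0879). DESeq2, and limma on the variance-stabilised values, also called 0 of the 9 in NZO. Without Cast libraries 1, 5 and 6, Insr (0.14, adjusted p = 0.0396) and Grb14 (0.27, adjusted p = 0.0480) passed, against 31.4% of all genes. The same step took WSB from 4 to 7 genes past the threshold (background 42.2%), with Insr, Irs2 and Pik3r1 added on the higher side. Without the 3 libraries, 5 of 9 passed in PWK (background 44.5%), 3 in NOD (26.1%), and 2 each in AJ (35.6%), B6 (30.3%) and 129 (29.7%).

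The 3 Cast libraries differed from the rest in more than the receptor genes. Of 13 genes that FoxO factors are known to raise, 9 had all 3 libraries above all other 58 (7.36% of all genes tested). These 9 were Fbxo32 and Trim63, the ubiquitin ligases of muscle breakdown, Sesn1, Klf15, Bnip3, Gabarapl1, Ulk1, Ccng2 and Txnip. The 3 libraries were singled out after their values had been seen, and the list was chosen with earlier results of these data known. The count beside the share of all genes is therefore a description and not a test. Trim63 had 3152, 2998 and 3682 CPM in Cast libraries 1, 5 and 6, against 115 to 1129 CPM in the other 4 and at most 1098 CPM in the other strains. Foxo1 itself had 267, 449 and 484 CPM, against 34.7 to 131 CPM in the other 4 Cast libraries and at most 94.7 CPM elsewhere. Slc2a4, which encodes the insulin-regulated glucose transporter GLUT4, was also above all others in the 3 libraries (643, 694 and 747 CPM).

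The remaining 4 of the 13, Pdk4, Sesn3, Cited2 and Gadd45a, overlapped the other strains in the 3 libraries. Among the 9 signalling genes, Irs1 also stayed within the range of the other strains, with 81.3, 85.9 and 115 CPM in the 3 libraries and 86.4 to 172 CPM in the other 4 Cast libraries. Akt2 in the 3 libraries (227, 232 and 257 CPM) overlapped the other 4 (185 to 252 CPM).

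**Figure D3:**
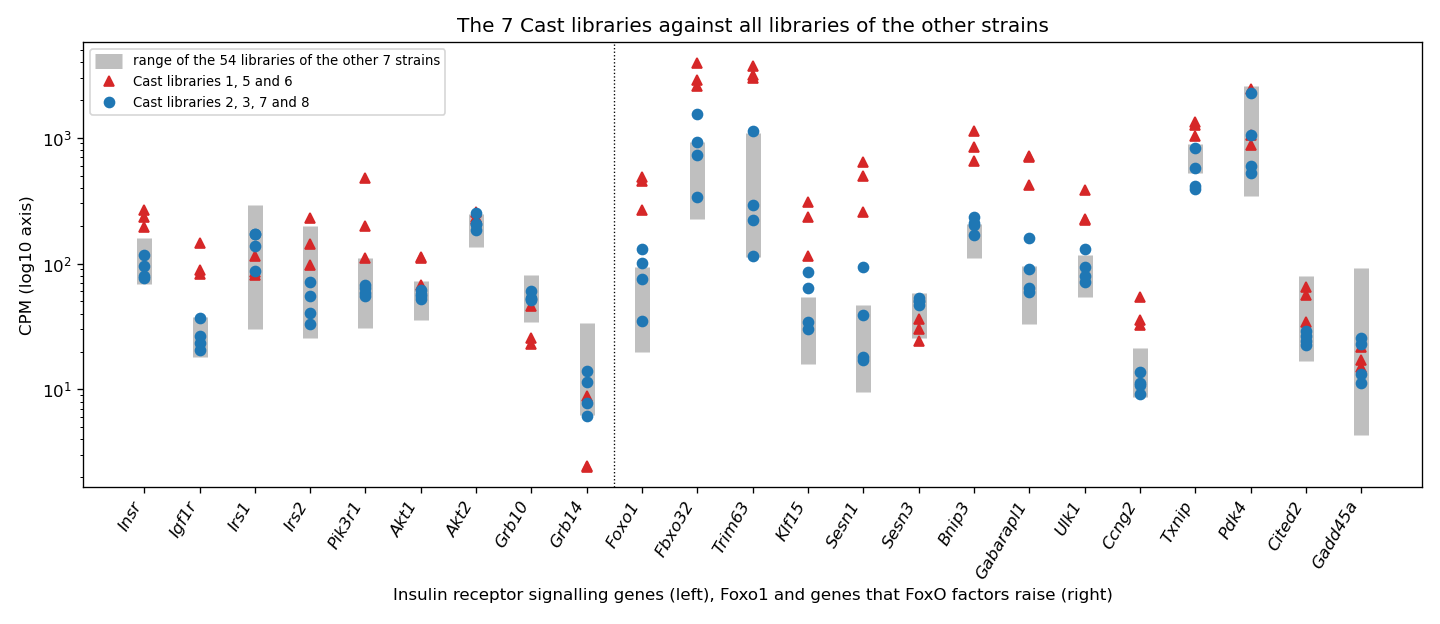
CPM (log10 axis) of the 9 signalling genes, of Foxo1 and of 13 genes raised by FoxO factors in the 7 Cast libraries. Grey bars span the 54 libraries of the other 7 strains, red triangles are Cast libraries 1, 5 and 6 and blue points are the other 4. The red triangles lie above the grey bars for Insr, Igf1r, Pik3r1, Foxo1 and 9 FoxO-raised genes.

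Other markers moved with these libraries. The summed level of 6 fibroblast markers was 368 to 547 CPM in the 3 libraries, 724 to 1290 CPM in the other 4 Cast libraries and 899 to 3070 CPM in the other strains. For 5 Schwann cell markers the sums were 51.1 to 67.7, 93.2 to 144 and 69.9 to 288 CPM, and for 10 adipocyte markers 1060 to 2340, 891 to 1460 and 395 to 1910 CPM. No marker of these lists was at 0 in all libraries. The 10 myofibre markers summed to 147000 to 155000 CPM in the 3 libraries, within the range of the other 54, and their total counts (26.8 to 36.7 M) were near the median. In bulk RNA, fewer cells of a type and less RNA per cell cannot be told apart. The part of these markers in the Cast results was not tested.

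**Figure D4:**
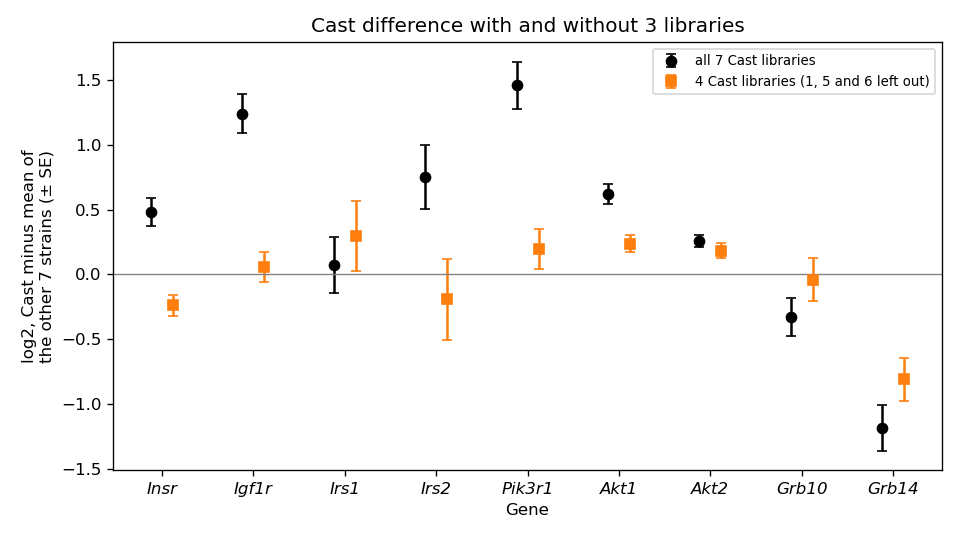
Log2 difference between Cast and the mean of the other 7 strains (± SE of the edgeR fit) for each gene, with all 7 Cast libraries (black circles) and with 4 (orange squares). Insr goes from 0.48 to -0.24 and Pik3r1 from 1.46 to 0.20, while Grb14 goes from -1.18 to -0.81.

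The level of Xist, the X-inactivation transcript made in female cells, ran from 0.0362 to 278 CPM, and every strain held libraries on both sides of its widest gap. In all, 31 libraries were above the gap (at least 141 CPM) and 30 below it (at most 30.9 CPM). The labels give no sex, so Xist was used in the test as a level, and the 2 sides of the gap are described without a test. The slope of each gene on the log2 level of Xist, scaled to its whole range, was tested in the fit with strain, a test added after the values had been seen. Of all genes, 15.9% had a slope, 7.74% rising and 8.13% falling.

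Grb10, which did not pass among strains, had the steepest rise among the 9: 0.73 log2 over the range of Xist (SE 0.08, adjusted p = 2.81e-10), with the same sign in 8 of 8 strains. In B6, the 4 libraries high in Xist had 63.3 to 80.7 CPM of Grb10 and the 4 low in Xist had 34.2 to 49.3 CPM. In NOD, the 4 high had 66.5 to 74.1 CPM and the 3 low had 35.2 to 42.2 CPM. The 2 sides did not overlap in AJ, B6, 129, NOD, PWK and WSB, and they overlapped in NZO and Cast. The share of all genes whose 2 sides do not overlap was not counted, so how unusual this is cannot be said. Without Cast libraries 1, 5 and 6 the slope was 0.70 (adjusted p = 5.88e-12). With Xist in the fit, Grb10 did differ among strains (adjusted p = 0.0308), by a span of 0.42. Library number, used above as a block, went largely with the Xist level, so the fit with that block is not independent of this one.

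Irs2 fell with Xist, with a slope of -0.69 log2 over its range (SE 0.22, adjusted p = 0.0236), with a falling slope in 7 of 8 strains. In NOD, NZO and PWK every library high in Xist was below every library low in it: in NZO, 31.6 to 41.8 CPM against 49.6 to 89.4 CPM. Here too, the share of all genes free of such overlap was not counted. Akt2 also fell (-0.12, SE 0.04, adjusted p = 0.0347). Pik3r1 did not pass with all libraries (0.15, SE 0.19, adjusted p = 0.633) but rose without the 3 Cast libraries (0.40, SE 0.10, adjusted p = 0.00253), when 19.6% of all genes had a slope. Those 3 were chosen with their high Pik3r1 seen. Cast libraries 5 and 6 (474 and 197 CPM of Pik3r1) were low in Xist (0.946 and 0.667 CPM), and leaving them out by itself tilts the slope upward. The adjusted p without the 3 therefore cannot decide whether Pik3r1 rises with Xist. In WSB, the 4 libraries high in Xist had 65.6 to 103 CPM of Pik3r1 and the 4 low had 38.9 to 46.3 CPM. None of Insr, Igf1r, Irs1, Akt1 and Grb14 had a slope that passed.

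Markers of other cells moved with Xist as well. Within strains, the summed level of 9 slow-fibre markers (Myh7, Tnnt1 and others) had a correlation of 0.68 with the Xist level over 61 libraries, that of the adipocyte markers 0.46 and that of the Schwann cell markers 0.33. With the sums of slow-fibre, adipocyte, fibroblast and Schwann cell markers in the fit together, over all 61 libraries, 5.86% of all genes had a slope on Xist. Grb10 was among them (0.58, SE 0.10, adjusted p = 0.000124), and Irs2 (-0.27, adjusted p = 0.648) and Akt2 (-0.07, adjusted p = 0.461) were not. Pik3r1 did not pass either (-0.18, adjusted p = 0.745), but over all 61 libraries it had not passed without the sums (0.15, adjusted p = 0.633). Its slope without the 3 Cast libraries was not tested with the sums.

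**Figure D5:**
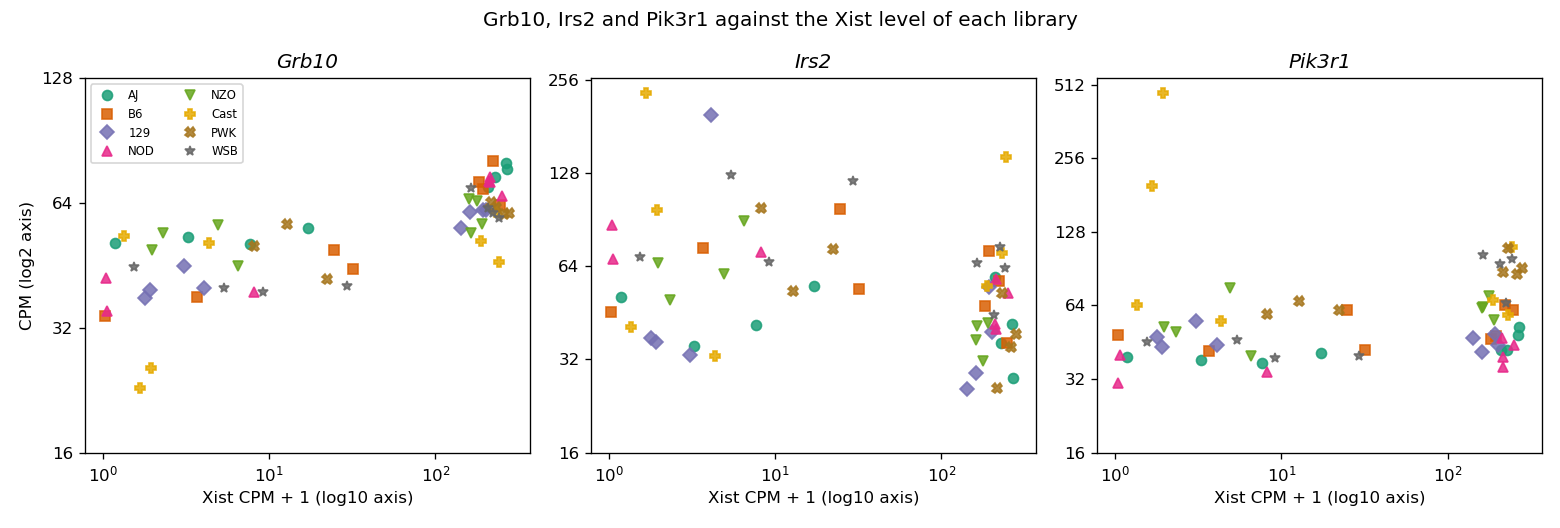
CPM (log2 axis) of Grb10, Irs2 and Pik3r1 against the Xist level (CPM + 1, log10 axis) in the 61 libraries, with a symbol for each strain. Libraries with at least 141 CPM of Xist are at the right of each panel, where Grb10 is higher than in most libraries at the left.

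The rest of the pathway was read from 6 lists of 77 genes, of which 76 were tested. Among strains 72 of the 76 (94.7%) differed, against 85.5% of all genes, and without Cast libraries 1, 5 and 6 also 72, against 82.6%. These shares of all genes, and those for Cast that follow, are the background of each list's counts. In Cast, 37 were higher and 18 lower than in the other strains (33.8% and 27.9% of all genes), and without the 3 libraries 25 were higher and 15 lower (22.8% and 20.3%). The lists were not independent of earlier results of these data, and no list was tested as a set.

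Among ligands and binding proteins, 7 of 8 differed (85.5% of all genes). Igf2, a growth factor, was highest in AJ (53.4 CPM ± 13.5 SD, n = 8) and lowest in NOD (17.7 ± 1.96, n = 7; adjusted p = 6.41e-16). Igf1 did not pass (adjusted p = 0.184), and passed without the 3 libraries (adjusted p = 0.0370). Igfbp3, which carries these factors, was highest in Cast (58.1 CPM ± 48.1, n = 7), with a log2 difference of 1.96 that was 0.51 (adjusted p = 0.0157) without the 3 libraries. Igfbp5 was lowest in Cast (log2 difference -1.47, and -0.79 without the 3 libraries).

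Of the 10 adaptors tested, 9 differed, and of the 11 genes of the kinase and its mTORC2 partners, all 11 (85.5% of all genes), or 9 and 10 without the 3 libraries (82.6%). Cblb, a ubiquitin ligase, was higher in Cast with libraries 1, 5 and 6 (log2 difference 1.17), and without them the difference was 0.01 (adjusted p = 0.952). Cbl was lowest in 129 (14.7 CPM ± 1.36, n = 8). The catalytic subunit Pik3cb behaved like Cblb (0.97 with and 0.06 without the 3 libraries, adjusted p = 0.589). Pik3cd, the catalytic subunit best known from leukocytes, was highest in B6 (16.2 CPM ± 4.64, n = 8) and lowest in NOD (3.92 ± 0.520, n = 7). The regulatory subunit Pik3r3 was highest in NZO (13.2 ± 1.80, n = 8) and lowest in Cast with the 3 libraries (5.96 ± 2.03, n = 7) and without (7.07 ± 1.76, n = 4).

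All 17 effectors of Akt differed among strains (85.5% of all genes). In Cast 12 were higher and 2 lower (33.8% and 27.9% of all genes), or 7 and 1 without the 3 libraries (22.8% and 20.3%). Foxo1 had a log2 difference in Cast of 2.64, and of 1.27 (adjusted p = 1.24e-06) without them. Pde3b, the phosphodiesterase through which Akt lowers cyclic AMP, was higher in Cast by 1.64, a value that was 1.53 (adjusted p = 7.56e-08) without the 3 libraries. Eif4ebp1, a brake on translation, went from 1.99 to 0.49. The GLUT4 gene Slc2a4, named after its values were seen, was higher in Cast in both cases (0.56, and 0.30 with adjusted p = 0.00572).

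Of 17 brakes on the pathway, 16 differed (85.5% of all genes). Enpp1, which inhibits the receptor, was highest in Cast (13.1 CPM ± 7.11, n = 7) and lowest in B6 (5.25 ± 1.10, n = 8). Its log2 difference in Cast was 1.04, and 0.46 (adjusted p = 0.000777) without the 3 libraries, when Cast was still highest (8.82 CPM ± 0.477, n = 4). The kinase gene Prkce was highest in AJ (30.4 ± 3.06, n = 8) and lowest in Cast (16.6 ± 3.38, n = 7), or in WSB (17.8 ± 1.85, n = 8) without the 3 libraries, when Cast had 18.6 ± 3.01 (n = 4). Socs3 was highest in AJ and lowest in B6 (adjusted p = 0.0151). Of 13 FoxO-raised genes, 12 differed (85.5% of all genes). In Cast, 10 were higher and 0 lower (33.8% and 27.9% of all genes), and without the 3 libraries 8 were higher and 2 lower (22.8% and 20.3%). Trim63 then had a log2 difference of 0.87 (adjusted p = 0.00298), Sesn1 of 0.79 (adjusted p = 0.0184) and Gabarapl1 of 0.78 (adjusted p = 3.30e-07), each above 0 and far under the values with all 7 Cast libraries (2.79, 3.20 and 2.55). These values leaned on Cast library 2, where the 13 genes summed to 6566 CPM, against 1859 to 3082 CPM in libraries 3, 7 and 8. Trim63 had 1129 CPM in library 2 and at most 291 CPM in those libraries, and Sesn1 94.4 and at most 38.7 CPM. Sesn1 no longer differed among strains (adjusted p = 0.0592).

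Within strains, the levels of Insr and Igf1r had a correlation of 0.83 over the 61 libraries, and of 0.25 over the 54 libraries without Cast. Igf1r and Grb14 kept an inverse relation, with -0.72 over all and -0.64 without Cast. Pik3r1 and Grb10 had -0.05 over all and 0.57 without Cast, and Irs2 and Grb10 had -0.51 and -0.44. Only some of the gene pairs are given. Libraries share depth and cell make-up, so these are descriptions without a test. Grb10 and Irs2 also moved with the Xist level (slopes of 0.73 and -0.69), and its part in these correlations was not tested.

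The genes most like each of the 9 over the 61 libraries, among 8896 candidates, were found by the correlation of log2 CPM. They were Fam134b and Tbl1xr1 for Insr (0.85 each), Ezh1 and Rnf169 for Igf1r (0.91 and 0.90) and Rnf4 and Igfbp3 for Pik3r1 (0.83 and 0.82). For Akt1 they were Bcl7b and Ppp1r15b (0.87 and 0.86), for Akt2 Slc25a51 and Acacb (0.80 and 0.78) and for Irs2 Zbtb11 and Pcf11 (0.77 and 0.73). Irs1 was most like Pdia6 and Hyou1 (0.70 and 0.68), Grb10 most like Sept11 and Klhl13 (0.80 and 0.79) and Grb14 most like Naalad2 and Taco1 (0.86 each). Strain differences and the 3 Cast libraries both enter these values.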

How the data were processed

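Skeletal muscle RNA of 61 libraries was analysed from the table of expected counts that the authors deposited. These are estimates of reads per gene without scaling, and 80.42% of the values were whole. A second deposited table, of variance-stabilised log2 values, served for one alternative. RNA was poly(A)-selected, per the labels' protocols. The submitters' processing notes name GRCm38 and DESeq2, with no version for the latter. Aligner, counting tool and use of strand: not given in the sources used here. How well reads of each strain map to GRCm38 was not tested.

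The design had assumed whole counts, so expected counts were rounded. They were tested with edgeR 4.0.16 (R 4.3.3) after filterByExpr and TMM normalisation. One quasi-likelihood fit, with strain as factor and 53 residual degrees of freedom, took in all 61 libraries. Strains were compared together, each with the mean of the other 7 strain values, and in 28 pairs, at an adjusted p of 0.05. Benjamini-Hochberg adjustment ran over all 16682 genes, and over genes and pairs together for the pairs. A standard error is the log2 difference over the root of its F. CPM use TMM-adjusted library sizes, and correlations use log2 CPM with a prior count of 2. Exon lengths, neighbours and copies (BLAST 2.17.0) came from GENCODE M21, promoters from RefSeq (GRCm38.p6).

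Alternatives used DESeq2 1.42.0, limma 3.58.1, other filters and scalings, marker sums, Xist, the running number in the titles, library number as a block, and libraries left out. The procedure was tested on simulated data: for NZO against the other strains, with 200 of 16420 genes changed, it recovered 78% of those changed 1.5-fold and 90% of those changed 2-fold. Unlike in the data, NZO alone was changed and no library was made to stand apart. These shares therefore do not give the recovery in the data.

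The members, the pathway lists and the comparisons were chosen with earlier results of these data known. Named were all 9 members, up to 3 genes a list (those that differed among strains, with at least 5 CPM and the widest span), and the 2 genes most like each member. One gene that this rule names is not reported here. Library numbers did not pair the strains.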

Additional observations from a re-analysis of the deposited data

Results flagged for a closer look

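In 8 of the 72 groups of libraries formed by 9 genes and 8 strains, 1 library stood apart from the rest of its strain by Dixon's test at the 95% level; chance alone gives this in about 1 group in 20. The 8 values came from 7 libraries.

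Pik3r1 in Cast library 5 was 474 CPM, against 55.2 to 197 CPM in the other Cast libraries. Irs2 in 129 library 7 was 198 CPM, against 25.7 to 55 CPM in the rest of 129. WSB library 9 stood apart for 2 genes, with Igf1r at 37.4 CPM (others 18.5 to 23.9 CPM) and Grb14 at 28.3 CPM (others 31.1 to 33.6 CPM). Igf1r in PWK library 9 was 35.7 CPM, against 26.4 to 29.0 CPM.

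Akt1 had such a library in 3 strains. It was 62.0 CPM in NZO library 8 (others 47.3 to 51.3 CPM) and 56.8 CPM in NOD library 4 (others 40.4 to 47.4 CPM). In B6 library 5, the library in which 46.3% of counts fell on Rn18s-rs5, it was 38.2 CPM (others 45.3 to 51.4 CPM).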

How the results depend on the processing

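The 61 results followed here were 11 counts, the test of each of the 9 genes among strains, and the 41 strain differences of the 9 genes that passed under at least 1 setting. Over these and 24 other settings, 1305 of 1414 comparisons kept their direction and their side of the threshold, 39 lost and 60 gained a call, 9 turned and 1 count moved by over 1.5 times. That count was of genes differing between WSB and the other strains, 6391 with all libraries and 4242 without 9 libraries high in lymphocyte markers, 4 of them WSB, so fewer samples entered. Of the 9 that turned, 3 came without Cast libraries 1, 5 and 6: Insr in Cast (-0.24), Irs2 in Cast (-0.19) and Irs2 in 129 (0.015). With slow-fibre markers in the fit, Grb10 in NZO was -0.41 (adjusted p = 0.0144), and with adipocyte markers Pik3r1 in WSB was -0.073. Insr in NOD and NZO was -0.014 and -0.0072 with 3 marker sums in the fit, and -0.0045 and -0.011 without the lymphocyte-high libraries. For these 6 the cause was not tested. Adjusted p ranged over the alternatives from 0.000448 to 0.244 for Irs2 among strains, from 0.000165 to 0.558 for Grb10 among strains, from 0.00873 to 0.262 for Irs1 in PWK and from 0.000645 to 0.861 for Grb10 in Cast. The differences of Akt2 in PWK, B6, Cast and WSB, of Grb14 in WSB, PWK and Cast, and of Akt1 in Cast, PWK and WSB passed under all 23. No library passed the rule for leaving out libraries high in hepatocyte markers, so that setting gave no value.

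Library numbers shared by the strains did not mark pairs: the deviations of same-numbered libraries had a median correlation of 0.0108 over 186 pairs, and 8 of 61 libraries correlated best with their own number. With library number as a block, 13992 genes differed among strains (14256 without it) and 8 of the 9 members. Irs2 no longer passed (span 1.12, adjusted p = 0.0827) and Grb10 did (span 0.50, adjusted p = 0.0485). Library number went largely with the Xist level. In AJ, B6, 129, NOD, NZO and Cast, every library high in Xist was numbered below every library low in it. This order did not hold in PWK and WSB. The part of Xist in the results with the block was not tested. Among the strain differences the block added calls for Irs1 in AJ (-0.58, adjusted p = 0.0250), Grb10 in AJ (0.28, 0.0254) and Pik3r1 in PWK (0.52, 0.0362), and ended that of Akt2 in 129 (-0.11, 0.0507).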
